A study of Homo sapiens with 8 samples.

Results

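The 10 genes described here lie on chromosome 17 beside ERBB2, the gene of the receptor tyrosine kinase HER2, and were chosen by name, as neighbours that can be amplified together with it. They are MED1, CDK12, STARD3, TCAP, PGAP3, MIEN1, GRB7, GSDMB, ORMDL3 and PSMD3, in the order in which they follow each other on the chromosome, with ERBB2 between PGAP3 and MIEN1. All 10 were found among the 20531 genes listed, MIEN1 under its older symbol C17orf37, and all 10 passed the filter on low values that left 14429 genes. They are not every gene of the stretch, since others, such as NEUROD2, PPP1R1B, PNMT, IKZF3, ZPBP2 and GSDMA, lie among them and were not taken.

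Poly(A) RNA was sequenced from 2 HER2-positive breast cancer cell lines. SKBR-3 lacks the estrogen and progesterone receptors, and BT474m1, derived from BT474, carries both receptors. Each line was grown for 48 h, per the labels, with DMSO as vehicle, with 300 nM lapatinib, with 300 nM JQ1, or with 300 nM of each (the combination). Lapatinib blocks the kinase activity of EGFR and HER2, and JQ1 displaces the BET bromodomain proteins from acetylated chromatin. Both lines overexpress HER2, so no group served as a control without the amplification. Each of the 8 groups held 1 library. No test across replicates within a line was therefore possible, and the 95% intervals given with fold changes cover counting error only.

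In HER2-amplified tumours a stretch of the chromosome around ERBB2 is repeated, and genes carried on it gain copies whatever their function. The passengers differ widely in what they encode. GRB7 is an adaptor that binds phosphorylated HER2, MIEN1 is a small prenylated protein linked to cell migration, and CDK12 and MED1 act in transcription by RNA polymerase II. STARD3, PGAP3 and ORMDL3 act in sterol transport, GPI-anchor remodelling and the control of sphingolipid synthesis. PSMD3 is a subunit of the proteasome, GSDMB a pore-forming gasdermin, and TCAP a protein of the muscle Z-disc.

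Promoter sequences in the RefSeq table for GRCh38.p14 were found for 7 of the 10 genes (MED1, CDK12, STARD3, PGAP3, MIEN1, ORMDL3 with 3 starts, and PSMD3). TCAP, GRB7 and GSDMB had no entry. The 250 bases before the start are printed for 3 genes that stand for the patterns described below, MIEN1 (higher with JQ1), PSMD3 (lower with lapatinib) and STARD3 (nearly level in SKBR-3). They run 5′ to 3′ on the strand of the gene. Capitals mark matches, on either strand, to 6 motifs searched by their letters, which are the E-box CACGTG, the CCAAT box, the GC box GGGCGG, the TATA box TATAAA, the AP-2 motif GCCNNNGGC and the forkhead motif GTAAACA.
MIEN1, minus strand, chr17:39730533-39730782: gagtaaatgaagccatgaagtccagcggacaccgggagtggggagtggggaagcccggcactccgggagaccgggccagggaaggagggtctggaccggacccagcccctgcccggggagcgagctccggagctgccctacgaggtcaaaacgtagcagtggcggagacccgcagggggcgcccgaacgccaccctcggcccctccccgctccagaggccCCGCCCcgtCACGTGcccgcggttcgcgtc
PSMD3, plus strand, chr17:39980557-39980806: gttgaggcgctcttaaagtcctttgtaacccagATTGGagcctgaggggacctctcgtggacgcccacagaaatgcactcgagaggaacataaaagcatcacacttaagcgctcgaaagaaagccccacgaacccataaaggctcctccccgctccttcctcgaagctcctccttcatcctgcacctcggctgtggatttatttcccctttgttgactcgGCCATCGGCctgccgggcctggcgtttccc
STARD3, plus strand, chr17:39636894-39637143: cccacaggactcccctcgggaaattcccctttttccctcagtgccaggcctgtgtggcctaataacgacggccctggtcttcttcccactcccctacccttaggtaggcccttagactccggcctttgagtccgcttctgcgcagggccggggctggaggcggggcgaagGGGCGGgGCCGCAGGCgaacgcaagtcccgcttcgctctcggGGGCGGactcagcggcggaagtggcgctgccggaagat

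In the MIEN1 promoter the E-box began 21 bases before the start and a GC box began 30 bases before it. The E-box letters were in none of the other promoters of these genes, and were in 6.34% of the 35116 promoters of the table. A GC box was found before STARD3, PGAP3, MIEN1 and each start of ORMDL3, and in 42.6% of all promoters. The CCAAT letters lay before MED1 and PSMD3 (32% of all promoters) and the AP-2 letters before STARD3 and PSMD3 (19.8%). The forkhead letters lay before PGAP3 (2.98%), and the TATA letters (10.7%) before none of the 7 genes. The CDK12 window held none of the 6 motifs. A match describes the letters and is not evidence of a bound factor.

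The labelled cell type was checked against markers. The 5 luminal epithelial markers summed to between 83428 and 507031 normalised units in the 8 libraries, although the epithelial cadherin CDH1 was near 0 in SKBR-3, where its lowest value was 2.58. Fibroblast markers summed to at most 1263, immune markers to at most 411 and endothelial markers to at most 189. Depth lay between 21420113 and 34112379 reads on genes, and 1 read was worth 0.471 to 0.766 normalised units.

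Without drug, the genes beside ERBB2 were among the most highly expressed genes of both lines. Levels per kilobase of the MANE Select transcript placed 8 of the 10 above the 90th percentile of the genes kept, in either line. The median percentile of the 10 was 97.2 in SKBR-3 and 97.7 in BT474m1. For the 33 other kept genes of the surrounding stretch, ERBB2 included, the median percentile was 60.7 and 75.4. In SKBR-3 the order by level per kilobase ran PSMD3, CDK12, MIEN1, GSDMB, MED1, STARD3, GRB7, ORMDL3, PGAP3 and TCAP. In BT474m1 it ran PSMD3, ORMDL3, MIEN1, STARD3, MED1, GRB7, PGAP3, CDK12, GSDMB and TCAP. PSMD3 led both lines, at 7684 and 16376 units per kilobase, and TCAP came last in both, at 64.1 and 50.6. ERBB2 itself stood above them all, at 24722 and 21058 units per kilobase. Summed over the 10 genes, the normalised values took between 0.653% and 0.855% of a library, beside 0.579% to 1.69% for ERBB2.

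**Figure D1:**
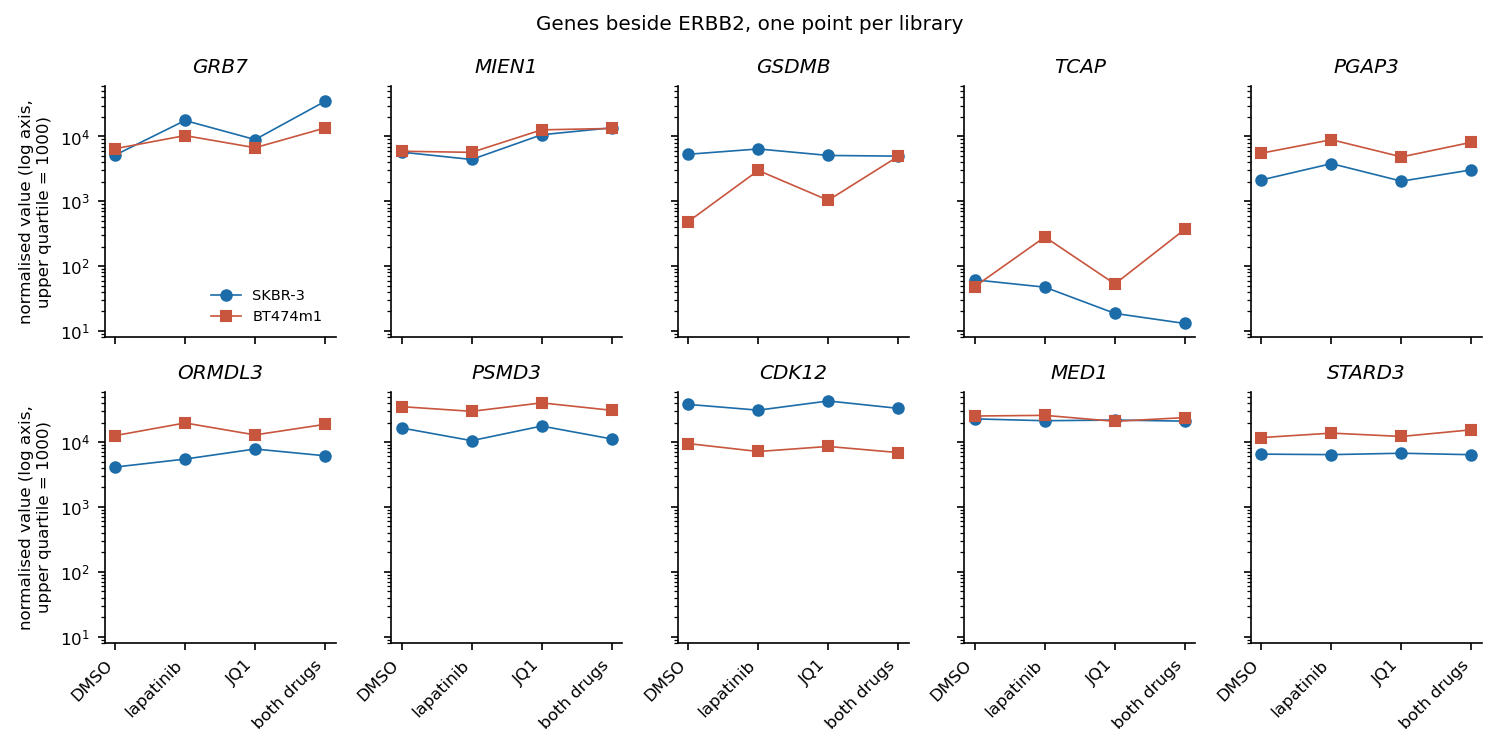
Normalised value (vertical log axis, upper quartile of a library set to 1000) of each of the 10 genes in the 4 treatments, with 1 point per library and lines only to guide the eye (blue circles SKBR-3, red squares BT474m1). GRB7 reaches 34802 in SKBR-3 with both drugs, GSDMB runs from 486 to 4939.9 in BT474m1 while the SKBR-3 points lie between 4973 and 6417, and TCAP is the one gene whose values stay below 1000.

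GRB7 had the largest response among the 10 genes to lapatinib in SKBR-3, and was highest in both lines when the drugs were combined. In SKBR-3 its normalised value was 5154 with DMSO, 17630.2 with lapatinib, 8956 under JQ1 and 34802 under the combination. In BT474m1 it was 6477, 10319, 6709 and 13510.2 in the same order. The untreated values were alike, and SKBR-3 was the higher line in each drug-treated pair. In bulk RNA, fewer expressing cells and less RNA per cell cannot be told apart. Lapatinib alone gave a log2 fold change of 1.77 (95% interval 1.74 to 1.81) in SKBR-3 and 0.67 (0.64 to 0.70) in BT474m1. JQ1 alone gave 0.80 in SKBR-3 and 0.05 in BT474m1. Both drugs together gave 2.76 (2.72 to 2.79) in SKBR-3, a 6.75-fold higher value, and 1.06 (1.03 to 1.09) in BT474m1. Adding JQ1 to lapatinib took GRB7 a further 0.98 (0.96 to 1.0) higher in SKBR-3 and 0.39 higher in BT474m1.

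ERBB2, which only MIEN1 separates from GRB7, had the same value with and without that addition in SKBR-3. Its value there was 112656 with DMSO, 277859 with lapatinib, 154570 under JQ1 and 277872 under the combination, and in BT474m1 it was 95962, 118705, 94678 and 104594. The log2 fold change of ERBB2 for both drugs against lapatinib was 0.00 (-0.01 to 0.01) in SKBR-3 and -0.18 in BT474m1. Per kilobase, GRB7 therefore stood at 9.34% of ERBB2 with DMSO, 12.9% with lapatinib, 11.8% under JQ1 and 25.6% under the combination in SKBR-3. In BT474m1 the same percentages were 13.8%, 17.7%, 14.5% and 26.4%. The combination gave the highest ratio in both lines.

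Of the relatives of GRB7, GRB10 had the value 74.4 with DMSO in SKBR-3 and 1763 in BT474m1, and its log2 fold changes with lapatinib were 0.50 and 0.27. GRB14 was at most 11.5 in any library. The gene most like GRB7, by the correlation of log2 values centred within each line over the 8 libraries, was BCL6, a transcriptional repressor (r = 0.995 among 8236 genes at 100 or more in every library). ERBB2 had r = 0.903 with GRB7. The 8 points of these correlations are the same libraries for every gene, so they describe likeness and nothing more.

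MIEN1, which lies between ERBB2 and GRB7, was higher wherever JQ1 was given. In SKBR-3 its value was 5737 with DMSO, 4416 with lapatinib, 10626 under JQ1 and 13597 under the combination. In BT474m1 it was 5917, 5692, 12652 and 13287.5. The 4 libraries with JQ1 all lay above the 4 without it. JQ1 gave a log2 fold change of 0.89 (0.85 to 0.93) in SKBR-3, just under the 2-fold mark, and 1.10 (1.07 to 1.13) in BT474m1. Both drugs against lapatinib gave 1.62 (1.58 to 1.67) in SKBR-3 and 1.22 (1.19 to 1.26) in BT474m1. With lapatinib alone it was -0.38 in SKBR-3 and -0.06 in BT474m1, which placed MIEN1 opposite to ERBB2 in both lines. In SKBR-3 both drugs together lay 0.73 above the sum of the 2 single-drug log2 fold changes, and in BT474m1 0.13 above it, a departure that was not tested.

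MIEN1 and ERBB2 overlap on opposite strands, and 149 bases of their MANE Select exons are shared in the GENCODE annotation. The labels name both a stranded and an unstranded library kit, so reads from those bases may have been counted for either gene. Per kilobase MIEN1 stood at 16.6% of ERBB2 with DMSO, 5.18% with lapatinib, 22.4% under JQ1 and 16.0% under the combination in SKBR-3. The percentages were 20.1%, 15.6%, 43.6% and 41.4% in BT474m1. The lowest ratio came with lapatinib in SKBR-3, where MIEN1 itself was lowest. Under the combination in SKBR-3 ERBB2 was as high, and MIEN1 was at its highest. Reads from the shared bases were not counted apart, and an effect of the overlap on either gene was not tested. PGAP3 overlaps ERBB2 on the opposite strand as well, but shares no MANE Select exon base with it. The gene most like MIEN1 was CARHSP1, an RNA-binding protein (r = 0.991), and its r with ERBB2 was 0.03.

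**Figure D2:**
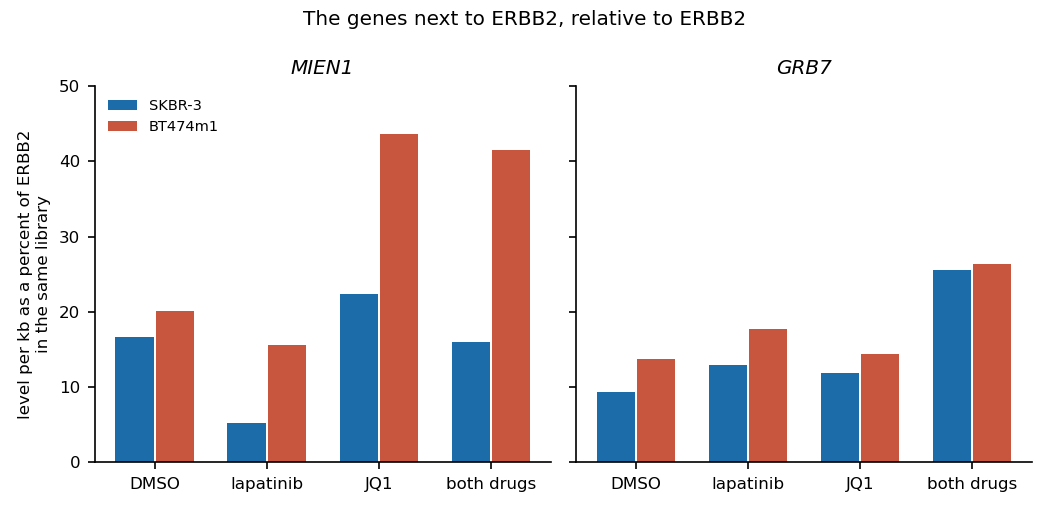
Level per kilobase of MIEN1 (left) and GRB7 (right) as a percent of the level of ERBB2 in the same library (vertical axis from 0), for the 4 treatments, with 1 bar per library (blue SKBR-3, red BT474m1). MIEN1 is lowest, at 5.18%, with lapatinib in SKBR-3 and reaches 43.6% with JQ1 in BT474m1, and GRB7 is highest with both drugs in each line, at 25.6% and 26.4%.

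Of the 10 genes, GSDMB differed most between the untreated lines. Its value in SKBR-3 was 5316 with DMSO, 6417 with lapatinib, 5096 under JQ1 and 4973 under the combination. In BT474m1 it was 486 with DMSO, 2994 with lapatinib, 1038 under JQ1 and 4939.9 under the combination. SKBR-3 held a nearly level value while BT474m1 began far below it and came to the same value with both drugs. The untreated lines differed by a log2 fold change of -3.45 (-3.55 to -3.36), BT474m1 against SKBR-3. In BT474m1 the log2 fold change was 2.62 (2.53 to 2.72) with lapatinib, 1.09 (0.99 to 1.2) with JQ1 and 3.34 (3.25 to 3.44) with both drugs. The same fold changes in SKBR-3 were 0.27, -0.06 and -0.10. Of the other gasdermins, GSDMD, the widely expressed member, was at 764 with DMSO in SKBR-3 and 543 in BT474m1, and its log2 fold changes in BT474m1 were 0.70 with lapatinib, -1.01 under JQ1 and -0.26 under the combination. In SKBR-3 they were -0.33, 0.57 and -0.08. GSDMC and PJVK stayed at 41.6 or below, and GSDMA and GSDME did not pass the filter. The gene most like GSDMB was CEP95, which encodes a centrosomal protein (r = 0.990).

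TCAP was the only one of the 10 genes at a low level, and its fold changes pointed in opposite directions in the 2 lines. In SKBR-3 it had 61.6 with DMSO, 47.5 with lapatinib, 18.7 under JQ1 and 13.1 under the combination, resting on 86, 62, 29 and 19 reads. In BT474m1 it had 48.6, 282, 53.1 and 371, resting on 103, 468, 110 and 636 reads. The log2 fold change in SKBR-3 was -1.67 (-2.38 to -1.10) with JQ1 and -2.15 (-3.04 to -1.51) with both drugs, while that with lapatinib was -0.37 with an interval reaching from -0.87 to 0.11. In BT474m1 it was 2.51 (2.23 to 2.86) with lapatinib and 2.91 (2.63 to 3.25) with both drugs, and 0.13 (-0.27 to 0.53) with JQ1. Other Z-disc genes were low too. Of 6 listed, TTN, MYOZ1 and LDB3 passed the filter, and all 6 summed to between 30.9 and 112 in any library. STARD3, the next gene on the chromosome, had the log2 fold change -0.03 with both drugs in SKBR-3 and 0.40 in BT474m1. The gene most like TCAP was RMP64 (r = 0.976).

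**Figure D3:**
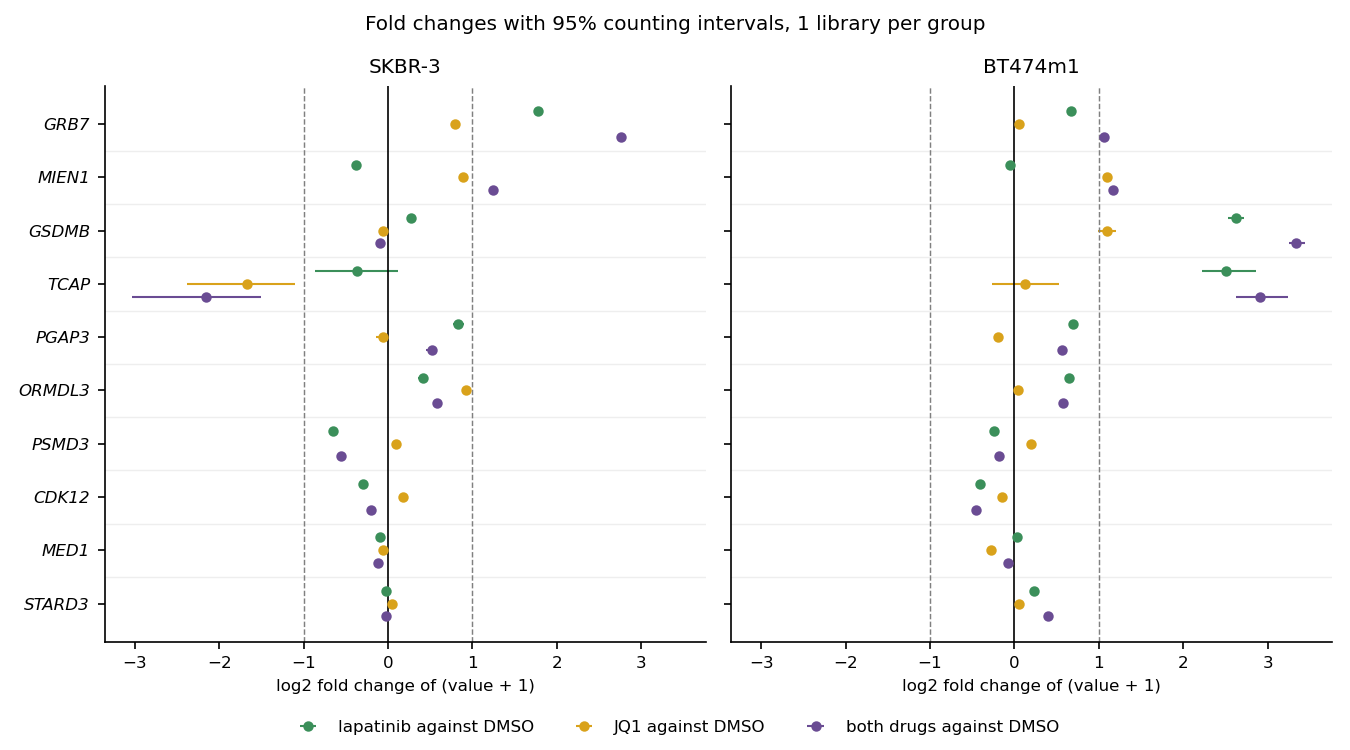
Log2 fold change of (value + 1) against DMSO (horizontal axis) for each of the 10 genes in SKBR-3 (left) and BT474m1 (right), with 1 library per group and bars for the 95% counting interval (green lapatinib, yellow JQ1, purple both drugs; dashed lines mark a 2-fold change). GRB7 in SKBR-3, with 2.76 for both drugs, and GSDMB in BT474m1, with 3.34, lie farthest to the right, and TCAP lies on opposite sides in the 2 lines with both drugs.

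PGAP3, which trims fatty acids of GPI anchors, followed lapatinib in the same direction in both lines. Its value in SKBR-3 was 2137 with DMSO, 3811 with lapatinib, 2044 under JQ1 and 3056 under the combination. In BT474m1 it was 5526, 8916, 4843 and 8139.9. In each line both libraries with lapatinib lay above both without it. The log2 fold change with lapatinib was 0.83 (0.77 to 0.90) in SKBR-3 and 0.69 (0.66 to 0.73) in BT474m1, under 2-fold in each. JQ1 gave -0.06 and -0.19. Of 3 other GPI-anchor remodelling genes that passed the filter, MPPE1 was the highest with lapatinib in both lines, at 0.95 and 0.91, and PGAP2 the lowest, at -0.11 and 0.30. PGAP1 was at least 2-fold higher with JQ1 in BT474m1 (log2 fold change 1.25). PGAP3 was most like RNF170, a ubiquitin ligase of the endoplasmic reticulum (r = 0.996). It had r = 0.763 with ERBB2, and 1147 genes were more like it than ERBB2 was.

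ORMDL3, a brake on serine palmitoyltransferase, the first enzyme of sphingolipid synthesis, had its highest SKBR-3 value with JQ1 and its highest BT474m1 value with lapatinib. Its value was 4113 with DMSO, 5466 with lapatinib, 7815 under JQ1 and 6143 under the combination in SKBR-3, and 12563, 19707, 12893 and 18748 in BT474m1. In BT474m1 both libraries with lapatinib lay above both without it. JQ1 gave a log2 fold change of 0.93 (0.88 to 0.97) in SKBR-3 and 0.04 (0.01 to 0.06) in BT474m1. With lapatinib it was 0.41 and 0.65. Scaling by the median of ratios carried the SKBR-3 value with JQ1 to 1.01, past the 2-fold mark. Both drugs lay 0.76 below the sum of the single-drug values in SKBR-3 and 0.11 below it in BT474m1, a departure that was not tested.

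The partners of ORMDL3 were measured as well. Under JQ1, ORMDL2 had a log2 fold change of 0.86 in SKBR-3 and 0.87 in BT474m1, and ORMDL1 was 1.03 higher with lapatinib in BT474m1. SPTLC2, a catalytic subunit of the enzyme, was 1.53 higher with lapatinib in SKBR-3. The small subunit SPTSSB was at least 2-fold lower with JQ1 in both lines, at -1.90 and -1.52. Of the 7 genes of this list, 3 were at least 2-fold higher with lapatinib in SKBR-3 (SPTLC2, SPTLC3 and SPTSSB) and 1 in BT474m1 (ORMDL1), beside 11.1% and 14% of all genes kept. SPTLC3 was low there, at 7.87 with DMSO and 34.5 with lapatinib. The gene most like ORMDL3 was MACF1, a cytoskeletal crosslinker (r = 0.990).

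PSMD3 was lower with lapatinib, alone or combined, in both lines, as was the median of the other subunits of the 19S cap of the proteasome. Its value was 16498 with DMSO, 10509 with lapatinib, 17653 under JQ1 and 11171 under the combination in SKBR-3, and 35159.8, 29765, 40214 and 30879 in BT474m1. In each line both libraries with lapatinib lay below both without it. The log2 fold change with lapatinib was -0.65 (-0.68 to -0.62) in SKBR-3 and -0.24 (-0.26 to -0.22) in BT474m1. The 18 other 19S genes had a median of -0.66 and -0.37, beside 0.05 and 0.07 for all genes kept. Of these 18, PSMD14, PSMC3 and PSMD2 were at least 2-fold lower in SKBR-3, PSMD14 at -1.32 and PSMD2 at -1.09, beside 9.44% of all genes kept. In BT474m1 only PSMC3 was, at -1.22, beside 8.06%. PSMD2 was also the gene most like PSMD3 (r = 0.986), and PSMD3 had r = -0.884 with ERBB2. The untreated log2 difference of PSMD3 was 1.09, BT474m1 against SKBR-3, where the 18 others had a median of -0.30. PSMD3 lay within their range, since PSMD7 (1.15) and PSMD11 (1.14) were also at least 2-fold higher in BT474m1.

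CDK12, which phosphorylates RNA polymerase II and favours transcripts of long genes, was far higher in SKBR-3. Its value there was 38088 with DMSO, 31034.5 with lapatinib, 43029.6 under JQ1 and 33096.5 under the combination, and in BT474m1 it was 9472, 7156, 8556 and 6886. The groups of the 2 lines did not overlap. The untreated log2 difference was -2.01 (-2.03 to -1.98). Differences with the drugs were smaller, with -0.30 and -0.40 for lapatinib and 0.18 and -0.15 for JQ1 in SKBR-3 and BT474m1. Its cyclin CCNK showed the opposite difference between the lines, with 532 in SKBR-3 and 1627 in BT474m1 (log2 1.61), and its paralogue CDK13 had 3315 and 2120.2. None of the 8 genes for transcriptional kinases and their cyclins was at least 2-fold changed against DMSO. Among all genes kept, 3.75% to 14.2% were higher and 8.06% to 20.8% lower in these comparisons, shares against which 8 genes are too few to be set. Among 5 DNA repair genes whose transcripts are known to need CDK12, ATR and ATM were under 2-fold with every treatment. The other 3 were at least 2-fold lower with lapatinib in both lines, beside 9.44% and 8.06% of all genes kept. FANCI was -3.03 in SKBR-3 and -3.82 in BT474m1, FANCD2 -2.73 and -3.79, and BRCA1 -2.49 and -4.64. A link of these values to CDK12 was not tested. Under JQ1 alone in BT474m1, FANCD2 (-1.40) and BRCA1 (-1.08) were also at least 2-fold lower, beside 11.8% of all genes.

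MED1, the Mediator subunit that contacts nuclear receptors, was the steadiest of the 10 genes. Its 8 values lay between 20866 (BT474m1 with JQ1) and 25821 (BT474m1 with lapatinib). Its log2 fold change against DMSO ran from -0.27 to 0.03. The other 32 genes of Mediator and its kinase module had medians between -0.07 and 0.10 in the 6 comparisons against DMSO. Of them, MED24, which lies beyond PSMD3 on the same chromosome, was lower with JQ1 in both lines, at -0.96 and -1.02. MED19 was the highest with JQ1 in both, at 0.82 and 0.84.

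STARD3, which moves cholesterol between late endosomes and other membranes, was level in SKBR-3. It had 6514 with DMSO, 6401 with lapatinib, 6727 under JQ1 and 6382 under the combination there, and 11722, 13736, 12200 and 15463 in BT474m1. The counting interval of the log2 fold change held 0 in SKBR-3 for lapatinib (-0.07 to 0.02) and for both drugs (-0.07 to 0.01). In BT474m1 both drugs gave 0.40 (0.37 to 0.42). Of its membrane-contact partners, NPC2 was at least 2-fold higher with JQ1 in BT474m1 (1.04), and NPC1 was 0.44 higher with JQ1 in SKBR-3. STARD3 and GSDMB had the highest correlation among the 45 pairs of the 10 genes (r = 0.937), and PGAP3 and PSMD3 the lowest (r = -0.930).

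Counted together, the genes beside ERBB2 did not share 1 response. With lapatinib in SKBR-3, GRB7 was at least 2-fold higher and none was 2-fold lower, beside 11.1% higher and 9.44% lower among all genes kept. With lapatinib in BT474m1, GSDMB and TCAP were higher and none was lower, beside 14% and 8.06%. With JQ1 in SKBR-3 none was higher and TCAP was lower, beside 3.75% and 11.8%. With JQ1 in BT474m1, MIEN1 and GSDMB were higher and none was lower, beside 4.81% and 11.8%.

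For both drugs against DMSO the count in SKBR-3 was 2 higher (GRB7 and MIEN1) and 1 lower (TCAP), beside 10.8% and 20.8% of all genes. In BT474m1 it was 4 higher (GRB7, MIEN1, GSDMB and TCAP) and none lower, beside 14.2% and 15.3%. For both drugs against lapatinib, MIEN1 was higher and TCAP lower in SKBR-3, beside 3.22% and 16.2%. In BT474m1 MIEN1 was higher and none lower, beside 5.2% and 12.5%. In 10 genes each count stands for 10% or more of them, so single counts cannot be set against these percentages. The median log2 fold change of the 10 genes was between -0.06 and 0.57 in the 6 comparisons against DMSO, and that of all genes kept between -0.08 and 0.07. Comparisons against DMSO within a line share the DMSO library. Across the 45 pairs the median correlation was 0.16, and 18 pairs were below 0. Over all pairs of the 8236 genes the median was 0.00.

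The untreated lines were compared to ask how alike the amplified stretch is in the 2 backgrounds. PGAP3, ORMDL3 and PSMD3 were at least 2-fold higher in BT474m1, at log2 1.37, 1.61 and 1.09, and CDK12 and GSDMB at least 2-fold lower, beside 26.8% higher and 15.6% lower among all genes. GRB7 (0.33), MIEN1 (0.04), MED1 (0.15) and ERBB2 itself (-0.23) were closest. The median difference of all genes was 0.21, and it was 0.06 after scaling by the median of ratios, so that small differences between lines depend on the scaling.

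Other genes of the stretch differed between the lines as well. Close to ERBB2, PNMT, which makes adrenaline from noradrenaline, had 10.7 in SKBR-3 and 358 in BT474m1 (log2 difference 4.93), and IKZF3, a lymphoid transcription factor next to GRB7, had 5.73 and 366 (5.77). Of 13 kept genes on the MLLT6 side of MED1, 10 were at least 2-fold higher in BT474m1 and 1 was lower, with a median log2 difference of 3.50. LASP1, an actin-binding protein, had 4858 in SKBR-3 and 97839 in BT474m1, a level near that of ERBB2 there. PCGF2, a Polycomb subunit, had 209 and 7895. On the other side, beyond PSMD3, 9 of 16 kept genes were at least 2-fold lower in BT474m1 and 3 were higher, with a median of -1.26. MSL1 had 8037 in SKBR-3 and 1385 in BT474m1, CASC3 10007 and 2347, and WIPF2 7150 and 1267. TOP2A, a target of anthracyclines, had 24959 and 5974, and IGFBP4, a binding protein of insulin-like growth factors, had 6.44 and 1880.2. The 14 kept genes from MED1 to PSMD3, ERBB2 included, had a median of 0.24. Gene copy number was not analysed here, and RNA levels alone do not give the ends of an amplified stretch.

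**Figure D4:**
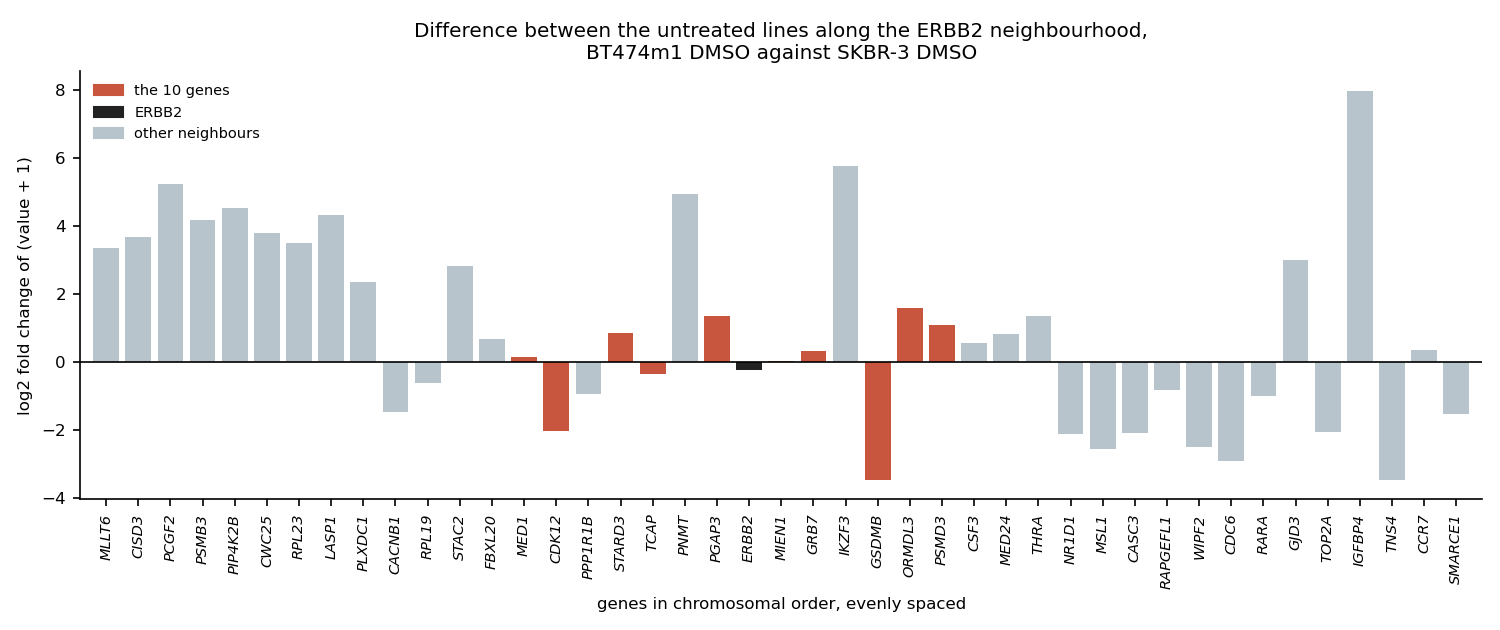
Log2 fold change of (value + 1), BT474m1 with DMSO against SKBR-3 with DMSO (vertical axis), for the 43 kept genes around ERBB2 in chromosomal order with even spacing and 1 library per line (red the 10 genes, black ERBB2, grey other neighbours). The genes at the left, from MLLT6 to PLXDC1, are all higher in BT474m1, ERBB2, MIEN1 and GRB7 lie close to 0, and MSL1, CASC3, WIPF2 and CDC6 to the right are lower.

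Beyond PSMD3 the values under JQ1 and under the combination were lower in the median. The median log2 fold change of the 16 genes there was, under JQ1, -0.76 in SKBR-3 and -0.81 in BT474m1, and, under the combination, -1.30 and -1.0. At least 2-fold lower were 6 and 6 of the 16 under JQ1, beside 11.8% of all genes in each line, and 9 and 8 under the combination, beside 20.8% and 15.3%. With lapatinib alone the median was -0.13 and -0.04, with 0 of the 16 at least 2-fold higher and 4 lower in SKBR-3 (11.1% and 9.44% of all genes), and 3 higher and 2 lower in BT474m1 (14% and 8.06%). Some of these counts rest on few reads. In SKBR-3, GJD3, IGFBP4 and CCR7 counted as lower under JQ1 from DMSO values of only 3.51, 6.44 and 9.31. IGFBP4 and CCR7 also counted as lower there with lapatinib and with the combination. CCR7 was low in BT474m1 too, at 12.3 with DMSO. On the other side, before MED1, the medians were -0.27 and 0.08 under JQ1, and -0.14 and 0.02 under the combination. The medians of the 10 genes for JQ1 were 0.07 and 0.05, and those for both drugs -0.06 and 0.57. THRA, the thyroid hormone receptor alpha, was -2.21 and -2.02 with JQ1. CDC6 and TOP2A, genes of DNA replication and chromosome segregation, were lower with lapatinib in both lines, TOP2A at -3.52 and -3.88. PPP1R1B, which lies between CDK12 and STARD3, was -3.10 under JQ1 in SKBR-3 and -3.09 in BT474m1, and -0.14 and -3.44 with lapatinib. CDK12 and STARD3 were between -0.40 and 0.23 with either drug alone. No difference between the 10 genes and either side was tested.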

How the data were processed

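The 8 deposited tables hold 1 signal for each of 20531 genes, a read count that the authors estimated with RSEM and scaled to an upper quartile of 1000 among genes above 0. The submitters' processing notes name hg19, Picard 1.88, SAMtools 1.2, R 3.2.2 and DESeq2 1.12.3. The study's methods text also names upper quartile normalisation and DESeq2, but another assembly, aligner and quantifier, and it is uncertain which apply to these tables. Its general treatment time is shorter than the labelled 48 h, which a legend for SKBR-3 also gives. Groups were taken from the labels.

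The value of 1 read was recovered as the common step between values, with which 83.3% to 84.6% of values above 0 were whole reads (tolerance 0.0001). A gene was kept when any library reached a value of 10, which left 14429. Fold changes are differences of log2(value + 1), a scale that understates the change of low genes, and 2-fold was the mark. Intervals (95%, exact Clopper-Pearson on recovered reads) cover counting error only. They treat reads as independent, which reads amplified by PCR and not tagged by molecule are not, so they may be too narrow. Lengths are of MANE Select transcripts in GENCODE, found for 93.1% of the genes kept, and gene order is that of RefSeq GRCh38.p14. Promoter sequences are of the same RefSeq build and locate the reference, not the reads.

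The 10 genes and the 15 gene lists were chosen with earlier results of these data known. Of 146 list genes, 145 were found. Beyond the 10 genes, the text names ERBB2, list genes changed at least 2-fold or at the ends of their list, and the gene most like each of the 10. Other genes given values were chosen after their values were seen. Alternatives were a pseudocount of 10, 2 other scalings, no filter, a filter at 100 and a call that needs the interval to exclude no change. The calculation was run on simulated reads with known changes and independent counting error. That run held no variation between libraries, so it does not show how far the fold changes would repeat. Calculations used Python 3.11.15 with scipy 1.17.1, numpy 2.4.6 and pandas 2.3.3, and plots matplotlib 3.10.9.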

Additional observations from a re-analysis of the deposited data

Results flagged for a closer look

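A gene was picked out here when its log2 fold change under the same comparison had opposite signs in the 2 lines and both counting intervals excluded 0. With 1 library per line and treatment the difference itself was not tested in any of these cases. The widest gaps were those of GSDMB and TCAP. With JQ1, GSDMB had -0.061 in SKBR-3 but 1.09 in BT474m1, with both drugs -0.096 and 3.34, and for both drugs against lapatinib -0.37 and 0.72. With both drugs, TCAP had -2.15 in SKBR-3 but 2.91 in BT474m1, and for both drugs against lapatinib -1.78 and 0.39, on 62 reads or fewer in the treated SKBR-3 libraries.

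The other gaps were small. With JQ1, CDK12 had 0.18 in SKBR-3 but -0.15 in BT474m1, and 0.093 and -0.056 for both drugs against lapatinib. ORMDL3 had 0.17 and -0.072 for both drugs against lapatinib. MED1 had -0.094 and 0.034 with lapatinib.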

How the results depend on the processing

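With 1 library per group no replicate could be left out. Pairing by replicate number could not be tried with 1 library per group, and a fit over the 8 libraries with the line as a block was not run. All 18 counts of genes at least 2-fold higher or lower stayed within 1.5 times their value with a pseudocount of 10, equal totals and the call that needs the interval to exclude no change. No filter and a filter at 100 could not move these counts, because all 10 genes pass either way. Scaling by the median of ratios moved 2 of them. The count higher with JQ1 in SKBR-3 went from 0 to 1 (ORMDL3, 0.93 to 1.01), and the SKBR-3 count for both drugs above lapatinib alone from 1 to 2 (GRB7, 0.98 to 1.14). The median of the 10 genes changed sign in SKBR-3 with JQ1 under equal totals (0.072 to -0.074) and with both drugs under the median of ratios (-0.063 to 0.081). Of 90 single log2 fold changes, 11 changed sign under the median of ratios, the largest of them 0.15, 2 under equal totals and 0 with a pseudocount of 10, which moved TCAP most, by 0.52. Of the results given above with opposite signs, 3 lost that under the median of ratios, where GSDMB in SKBR-3 became 0.026 with JQ1 and 0.047 with both drugs, and MED1 in BT474m1 became -0.019 with lapatinib. Under equal totals all of them kept their signs. Depth limits TCAP alone among the 10 genes.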
